A study of Mus musculus with 6 samples.

Results

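Toll-like receptors are membrane proteins that recognise molecules of microbes and of damaged cells and signal through a cytoplasmic TIR domain. TLR1, TLR2, TLR4, TLR5 and TLR6 act at the cell surface on lipoproteins, lipopolysaccharide and flagellin, whereas TLR3, TLR7, TLR8, TLR9 and TLR13 act in endosomes on nucleic acids. In the brain most of them are best known from microglia and other myeloid cells, and TLR3, the receptor for double-stranded RNA, is also known from astrocytes. The 10 genes Tlr1, Tlr2, Tlr3, Tlr4, Tlr5, Tlr6, Tlr7, Tlr8, Tlr9 and Tlr13 were taken by symbol from the 24421 genes listed in each library. All 10 were found, and all 10 passed the minimum mean of 1 normalized count over the 6 libraries.

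RNA-seq was performed on cells that FACS had separated by TurboRFP from the olfactory bulbs of adult male mice, with 3 control and 3 Sox9 KO libraries from 3 mice per genotype. Mice of both genotypes carried AAV-GFAP-iCre-P2a-TurboRFP, a virus in which the GFAP promoter drives both Cre and the red fluorophore TurboRFP, and cells were taken 4 weeks after its injection into the bulb. KO mice were Sox9fl/fl. Controls were labelled WT on a C57BL/6 strain, and are given as C57BL/6J or Sox9+/+ in the sources, so that they carried Cre without a floxed allele. Cells were gated on light scatter, singlets and TurboRFP, and purity was not measured on the sorted cells but judged by the study from cell type markers in the RNA-seq. The study asked how loss of Sox9, a transcription factor of mature astrocytes, changes gene expression in these cells.

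Between 18242129 and 86906527 reads fell on genes per library. Values are normalized counts, that is, reads per gene divided by 1 size factor per library. Sox9 itself stood at 5556 ± 881 normalized counts in control libraries and at 58.2 ± 5.88 in KO (SD over n = 3 libraries per genotype), a log2 fold change of −6.54 in limma (SE, the standard error, 0.15, adjusted p = 2.5e-09), which is the direction the labels give. The libraries are labelled olfactory bulb astrocytes, but their markers of other cells were not low. The summed level of 12 astrocyte markers lay between 511468 and 571318 normalized counts in the controls and between 37063 and 47613 in KO, and 12 of 12 fell. The summed level of 16 microglia markers lay between 194362 and 229414 in the controls and between 671137 and 803652 in KO. Of these 16 markers, 15 rose and none was at 0 in any library. Calls of risen and fallen genes needed an adjusted p under 0.05 and 1.5-fold, which 22.2% and 28.8% of all genes tested passed. Fewer or more cells of a type and less or more RNA per cell cannot be told apart in bulk libraries.

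Of the 10 Toll-like receptor genes, 8 rose in Sox9 KO and 1 fell at an adjusted p of 0.05 and 1.5-fold (limma with Benjamini-Hochberg adjustment over 18413 genes). The risen genes were Tlr1, Tlr2, Tlr4, Tlr6, Tlr7, Tlr8, Tlr9 and Tlr13, with log2 fold changes between 1.38 and 2.11. Tlr5, the flagellin receptor, fell, and Tlr3 was lower by less than 1.5-fold. At the same thresholds 22.2% of all genes tested rose and 28.8% fell. The median log2 fold change was 1.66 over the 10 genes and −0.07 over all genes tested. In the 8 risen genes every KO library lay above every control library, as in 32.4% of all genes tested, and in Tlr3 and Tlr5 every KO library lay below every control library, as in 34.7%. Together the 10 genes had between 33447 and 36559 normalized counts in the controls and between 82915 and 90822 in KO.

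**Figure D1:**
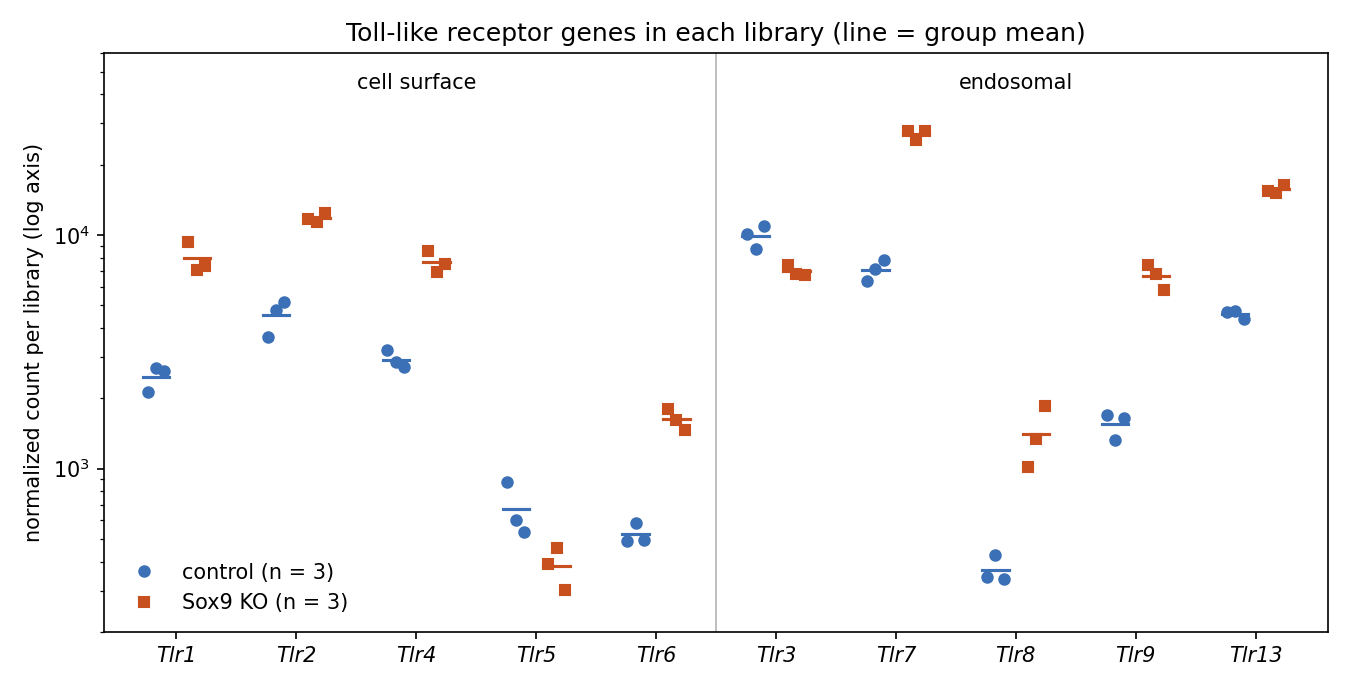
Normalized counts of the 10 Toll-like receptor genes (vertical log axis) in each control library (blue circles) and each Sox9 KO library (orange squares), with a line at each group's mean. Receptors of the cell surface stand on the left and endosomal receptors on the right, and Tlr5 and Tlr3 are the genes whose KO libraries lie below their control libraries.

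Windows of 300 bases around an annotated transcription start, from 250 bases before it to 50 after, were available for 8 of the 10 genes in RefSeq (GRCm38.p6). They are shown for the endosomal receptors Tlr3, which was lower in KO, and Tlr9 and Tlr13, which rose. The window of Tlr8, an endosomal receptor that also rose, is not shown and held none of the letters searched. Capitals mark the letters GAGGAAG (core of the site of PU.1, a myeloid factor of the ETS family), ACAATG (core of the site of SOX factors) and TGANTCA (AP-1), searched on both strands. The Tlr3 window lies at chr8:45410331-45410630 on the minus strand. All of it is inside the annotated span of Tlr3, from 45395665 to 45411075, so its start is not the outermost one of the gene. The Tlr9 window at chr9:106222348-106222647 and the Tlr13 window at chrX:106143025-106143324, both on the plus strand, are at the outer end of their genes' spans.
Tlr3: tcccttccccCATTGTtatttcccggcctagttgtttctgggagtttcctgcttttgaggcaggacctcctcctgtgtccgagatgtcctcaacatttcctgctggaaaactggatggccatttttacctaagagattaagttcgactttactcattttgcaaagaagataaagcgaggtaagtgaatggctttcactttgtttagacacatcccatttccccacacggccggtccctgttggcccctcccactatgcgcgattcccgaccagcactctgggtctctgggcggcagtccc
Tlr9: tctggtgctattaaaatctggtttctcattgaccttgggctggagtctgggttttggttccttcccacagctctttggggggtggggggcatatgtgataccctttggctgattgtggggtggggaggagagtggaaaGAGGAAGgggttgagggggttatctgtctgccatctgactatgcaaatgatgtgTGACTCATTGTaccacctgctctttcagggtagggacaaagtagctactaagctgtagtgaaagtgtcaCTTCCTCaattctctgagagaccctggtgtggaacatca
Tlr13: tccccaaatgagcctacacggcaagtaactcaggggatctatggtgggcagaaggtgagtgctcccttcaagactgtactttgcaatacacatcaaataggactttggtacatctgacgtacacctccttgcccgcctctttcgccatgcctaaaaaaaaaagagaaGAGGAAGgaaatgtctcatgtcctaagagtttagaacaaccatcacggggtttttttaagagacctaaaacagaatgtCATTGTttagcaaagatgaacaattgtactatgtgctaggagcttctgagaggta

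The Tlr9 window held GAGGAAG 2 times, and the Tlr13 window held it 1 time, 83 bases before the start. Among the 10 windows of the 8 genes, 1 of the 2 windows of Tlr1 also held it, and those of Tlr2, Tlr3, Tlr5, Tlr6 and Tlr8 did not. GAGGAAG was found in 13.6% of all 32851 windows. ACAATG stood in the same Tlr1 window and in those of Tlr3, Tlr9 and Tlr13, and in 12.6% of all windows. TGANTCA stood in the Tlr9 window alone among the 10, and in 7.81% of all windows. In Tlr9 it overlaps the reverse complement of ACAATG. These matches are letters in a window and were not tested as binding sites.

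Among the receptors of the cell surface, TLR2 pairs with TLR1 or TLR6 to recognise lipoproteins, and the genes of all these partners rose. Tlr2, on chromosome 3 from 83836272 to 83841824, had 3655, 4779 and 5167 normalized counts in the controls, replicates 1 to 3 in turn, and 11661, 11369 and 12384 in KO, in the same order of replicates. The groups did not overlap. Its mean went from 4534 ± 785 to 11805 ± 523 (SD over n = 3 libraries per genotype), a log2 fold change of 1.39 (SE 0.12, adjusted p = 4.4e-06 in limma).

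Tlr1, on chromosome 5 from 64924680 to 64933600, had 2117, 2689 and 2602 normalized counts in the controls and 9354, 7079 and 7365 in KO. KO replicate 1 was the highest library, and the log2 fold change was 1.68 (SE 0.13, adjusted p = 1.5e-06 in limma). Its neighbour Tlr6, from 64953092 to 64970942 on the same chromosome, had 491, 585 and 493 normalized counts in the controls and 1795, 1610 and 1463 in KO. Neither gene had overlapping groups. The log2 fold change of Tlr6 was 1.63 (SE 0.12, adjusted p = 1.3e-06 in limma), close to that of Tlr1. Tlr1 and Tlr6 share sequence. Of the 50-base stretches in Tlr1 transcripts, 13.6% also occur in Tlr6, and 12.3% of those of Tlr6 occur in Tlr1, so that reads within these stretches could belong to either gene, and how the counting treated them was not stated. No other pair among the 10 genes shared a 50-base stretch.

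Tlr4, on chromosome 4 from 66827551 to 66846581, encodes the lipopolysaccharide receptor. It had 3206, 2848 and 2722 normalized counts in the controls and 8488, 6910 and 7533 in KO. The groups lay well apart. The mean rose 2.61-fold, with a log2 fold change of 1.38 (SE 0.10, adjusted p = 1.3e-06 in limma).

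Tlr5, on chromosome 1 from 182954752 to 182976044, was the receptor that fell. Its values were 875, 602 and 534 normalized counts in the controls and 390, 457 and 301 in KO. Control replicate 1 stood above the other controls, and the nearest libraries of the groups, control replicate 3 and KO replicate 2, were 534 and 457. The mean went from 671 ± 181 to 383 ± 78.3 (SD over n = 3 libraries per genotype), and the gene fell by 0.80 on the log2 scale (SE 0.21, adjusted p = 0.0074 in limma). Tlr5 rested on few reads, down to 198 in KO replicate 3, the lowest number of the 10 genes in any library. After quantile normalization its log2 fold change was −0.55, which is under 1.5-fold.

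Among the endosomal receptors, Tlr7, for single-stranded RNA, had the highest level per kb of the family in KO. Tlr7, on chromosome X from 167303380 to 167330574, had 6320, 7165 and 7840 normalized counts in the controls and 27856, 25423 and 27799 in KO. The groups lay far apart, and the KO libraries were close to each other. The log2 fold change was 1.93 (SE 0.10, adjusted p = 1.0e-07 in limma).

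Tlr8, which lies beside Tlr7 from 167241123 to 167264329 and recognises breakdown products of RNA, was far lower per kb. It had 343, 426 and 337 normalized counts in the controls and 1018, 1332 and 1850 in KO. Relative to their mean, its KO libraries were the most spread of the risen genes, with a mean of 1400 ± 421 against 369 ± 49.5 in control (SD over n = 3 libraries per genotype). The log2 fold change was 1.89 (SE 0.20, adjusted p = 1.6e-05 in limma).

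Tlr9, the receptor for unmethylated CpG DNA on chromosome 9 from 106222598 to 106226876, had the largest log2 fold change of the 10 genes in the fit of all 6 libraries as deposited. Tlr8 was above it after quantile normalization, at 2.08 against 1.87, and without KO replicate 1, where Tlr8 was at 2.09. Tlr9 had 1697, 1323 and 1638 normalized counts in the controls and 7442, 6779 and 5834 in KO, without overlap, and its mean rose 4.31-fold. The log2 fold change was 2.11 (SE 0.12, adjusted p = 2.2e-07 in limma). Tlr13, which recognises bacterial ribosomal RNA and lies on chromosome X from 106143275 to 106160493, had the smallest standard error of the 10 genes. Its values were 4682, 4718 and 4361 normalized counts in the controls and 15401, 15166 and 16358 in KO. The log2 fold change was 1.77 (SE 0.08, adjusted p = 5.3e-08 in limma).

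Tlr3, on chromosome 8 from 45395665 to 45411075, went the other way. It had 10060, 8697 and 10863 normalized counts in the controls and 7418, 6792 and 6756 in KO. The groups did not overlap. The mean was 9873 ± 1095 in control and 6988 ± 372 in KO (SD over n = 3 libraries per genotype), or 1.41-fold lower, with a log2 fold change of −0.49 (SE 0.10, adjusted p = 0.0016 in limma). This difference exceeded the spread between replicates but not the threshold of 1.5-fold. With library totals made equal, the log2 fold change was −0.74, and after quantile normalization −0.96, both past 1.5-fold. An antisense gene, Gm45542, covers 7.32% of the Tlr3 exons, and the sources do not state whether the counting used strand.

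Markers of several cells moved beside Tlr3 and Tlr5. Astrocyte markers had a median log2 fold change of −3.97, and those with the highest mean were Slc1a2, Slc1a3 and Aqp4. The summed level of 9 neutrophil markers was 792, 6986 and 1650 normalized counts in the controls and 771, 236 and 330 in KO. It was highest in control replicate 2, and the neutrophil marker Mpo was at 0 in the other 5 libraries. Monocyte markers summed to between 2255 and 3258 normalized counts in control and to between 977 and 1951 in KO. Of the 6 markers 1 rose and 1 fell, beside 22.2% risen and 28.8% fallen among all genes tested. The fallen marker was Vcan, which made up most of the sum in each control library. Its mean was 2175 in the controls against 407 in KO, a log2 fold change of −2.42. By the sign of the log2 fold change, 4 of the 6 markers were higher in KO and 2 lower, so the lower sum does not describe the list as a whole. The part of these cells in the lower Tlr3 and Tlr5 was not tested.

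Levels of different genes were compared per kb of exon in GENCODE M21. In control, Tlr3 had the highest level per kb, with 1896 ± 210 normalized counts per kb (SD, n = 3), followed by Tlr7 with 1741 ± 187 and Tlr2 with 1504 ± 261. Neighbours in this order overlapped between libraries, as did Tlr6, Tlr5 and Tlr8 at its lower end. Tlr13, Tlr1, Tlr4 and Tlr9 stood between them in that order, without overlap between neighbours. In KO, Tlr7 was first with 6621 ± 340 normalized counts per kb, apart from all others, and Tlr2 and Tlr13 followed with 3917 ± 173 and 3634 ± 147, which overlapped. Tlr1 and Tlr9 came next and overlapped each other, and Tlr4 and Tlr3 followed, with 1376 ± 143 and 1342 ± 71.5, which also overlapped. Tlr6 and Tlr8 overlapped as well, and Tlr5 was lowest with 79.9 ± 16.3.

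Expressed as a share of the summed per-kb level of the 10 genes, Tlr3 took between 20.4% and 24.5% in the controls and between 5.84% and 6.20% in KO. A share also falls when the other genes rise. The level of Tlr3 itself was 1896 normalized counts per kb in control and 1342 in KO. The share of Tlr7 was 20.9 ± 1.15% in control and 30.0 ± 0.58% in KO (SD over n = 3 libraries per genotype). The shares of Tlr2, 18.1 ± 2.32% and 17.7 ± 0.85%, and of Tlr4, 6.37 ± 0.88% and 6.22 ± 0.38%, overlapped between the groups.

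**Figure D2:**
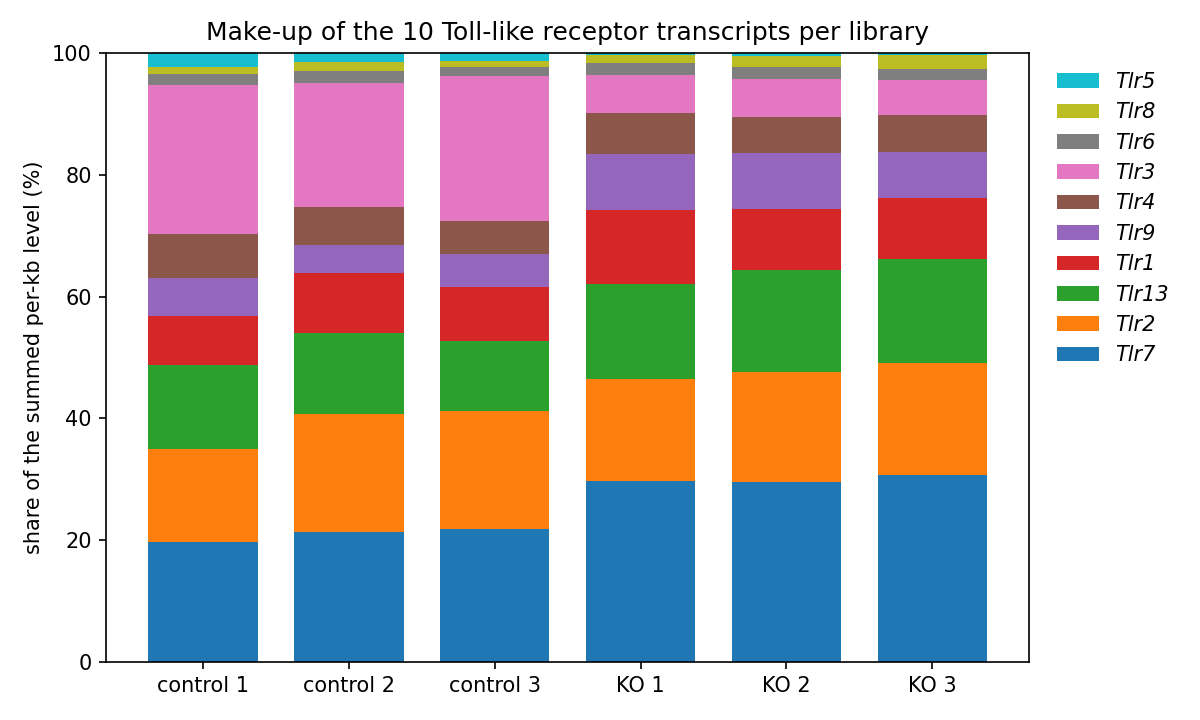
Share (percent, vertical axis) of each Toll-like receptor gene in the summed per-kb level of the 10 genes, 1 stacked bar per library. The share of Tlr3 (pink) shrinks from between 20.4% and 24.5% in the controls to between 5.84% and 6.20% in KO. That of Tlr7 (blue, at the bottom) grows. A share also falls when the other genes rise.

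Since microglia markers rose in the same libraries, each receptor was also set against the mean log2 level of the 16 microglia markers in its library. That mean was 1.78 higher in KO than in control. On this scale none of the 10 genes was called higher in limma at the same thresholds, against 1.06% of all genes tested, and 1 of them, Tlr9, was higher at an unadjusted p under 0.05. Of all genes 81.7% were called lower on this scale, with a median of −1.85, since the markers' own rise was subtracted from every gene. Relative to the markers, Tlr1, Tlr2, Tlr6, Tlr7, Tlr8 and Tlr13 had differences between −0.39 and 0.15 on the log2 scale, and KO and control libraries overlapped in each of these 6 genes (adjusted p between 0.062 and 0.92 in limma). The difference was 0.32 for Tlr9 (SE 0.13, adjusted p = 0.033 in limma) and −0.40 for Tlr4 (SE 0.13, adjusted p = 0.013 in limma), both under 1.5-fold with groups that did not overlap.

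Tlr3 and Tlr5 were the 2 of the 10 genes called lower on the same scale, where most genes were. Tlr3 was 0.03, 0.01 and 0.34 log2 units above the marker mean in the controls, and its KO values were −2.10, −2.30 and −2.06. It fell by 2.28 relative to the markers (SE 0.14, adjusted p = 2.0e-08 in limma), and Tlr5 fell by 2.58 (SE 0.18, adjusted p = 7.4e-08 in limma). These values describe how the genes moved beside one another within a library. They do not separate a change in the number of cells from a change in the cells.

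**Figure D3:**
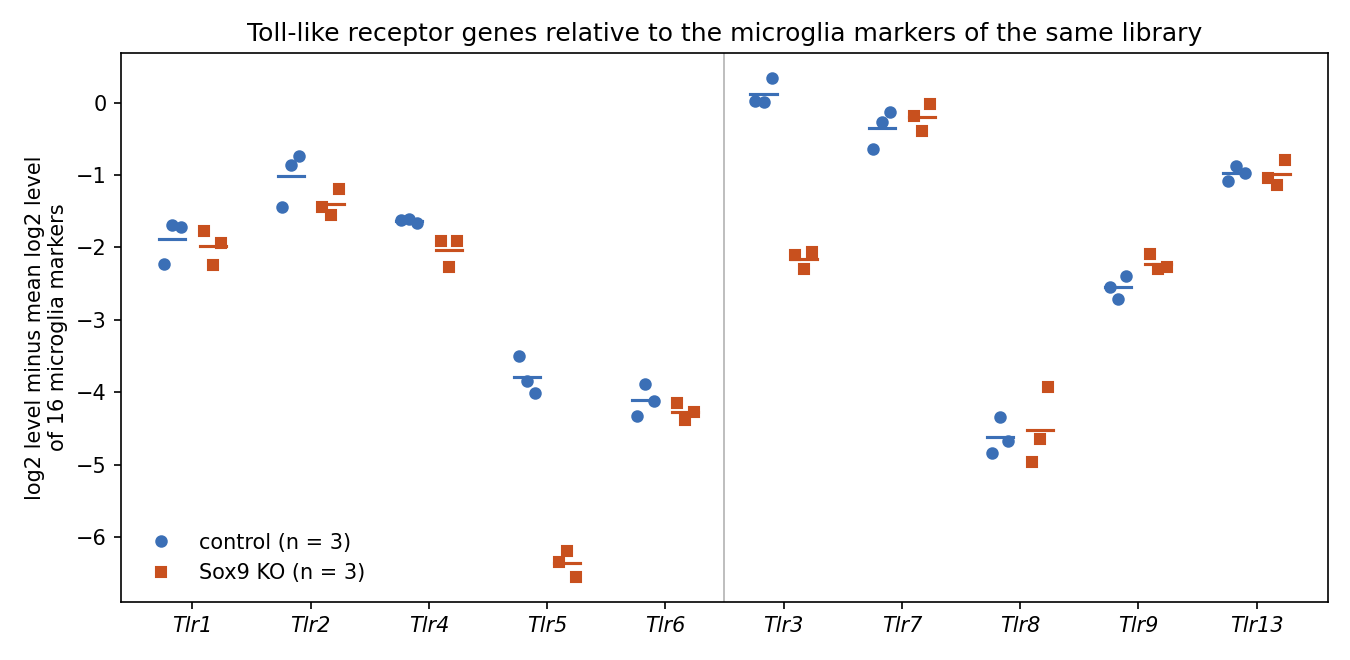
Log2 level of each Toll-like receptor gene minus the mean log2 level of the 16 microglia markers of the same library (vertical axis), for control (blue circles) and Sox9 KO libraries (orange squares), with a line at each group's mean. Control and KO points overlap for Tlr1, Tlr2, Tlr6, Tlr7, Tlr8 and Tlr13. They lie apart for Tlr4 and Tlr9, with KO minus control at −0.40 and 0.32, both under 1.5-fold. Tlr3 and Tlr5 have KO minus control at −2.28 and −2.58, beside a median of −1.85 over all genes tested.

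Other immune cells that carry these receptors were read from their markers. Of 9 border macrophage markers 3 rose and 4 fell, beside 22.2% risen and 28.8% fallen among all genes tested. Their summed level lay between 18716 and 28220 normalized counts in control and between 31360 and 38099 in KO. Mrc1 and Stab1 made up most of it in each library, and both rose, with log2 fold changes of 0.70 and 1.35. F13a1, the marker of next highest mean, fell, with −0.79. The median over the 9 markers was −0.42, so the higher sum does not describe the list as a whole. Of 7 dendritic cell markers 3 rose and 1 fell, with sums between 836 and 1313 in control and between 3702 and 4764 in KO. Most of that sum was Itgax, at 3917 ± 457 normalized counts in KO, while Cd209a fell. B lymphocyte markers summed to between 553 and 723 in control and to between 4912 and 5909 in KO. Nearly all of that sum in KO was Cd22, at 4869 ± 426 normalized counts, while the B cell gene Ms4a1 had at most 13 reads in any library of either group. T and NK lymphocyte markers lay between 194 and 378 in control and between 568 and 737 in KO, mostly Cd4, at 616 ± 91.0 in KO, and 2 of 7 rose. Neuron, oligodendrocyte and olfactory ensheathing cell markers fell in 10 of 11, 6 of 7 and 4 of 6, and of 7 endothelial markers 2 rose and 3 fell. The part of these cells in the receptors' changes was not tested.

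Mice have a pair of further family members, which are absent as functional genes in humans and recognise profilin of protozoa. Tlr11 had 36.5, 17.9 and 22.1 normalized counts in the controls and 526, 242 and 245 in KO, and Tlr12 had 104, 102 and 173 in the controls and 1330, 840 and 799 in KO. In the controls Tlr11 rested on few reads, 25, 26 and 14 in turn, and Tlr12 on 71, 148 and 110. Both rose by more than any of the 10 genes, with log2 fold changes of 3.64 (SE 0.38, adjusted p = 1.3e-05 in limma) and 2.97 (SE 0.25, adjusted p = 3.2e-06 in limma). In both, KO replicate 1 was the highest library. They were also called higher relative to the microglia markers, by 1.85 and 1.18 on the log2 scale (adjusted p = 0.0004 and 0.0014 in limma).

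The proteins around the receptors were listed by role, 64 genes with Tlr11 and Tlr12 included, of which 43 rose, 2 fell and 19 did not pass. Their median log2 fold change was 1.03. At the same thresholds 22.2% of all genes tested rose and 28.8% fell, to be set beside the counts here and for each role. Co-receptors and accessory proteins hand ligands to the receptors, and 4 of 6 rose. Ly86, the partner of CD180, and Ly96, which encodes the lipopolysaccharide-binding partner MD-2 of TLR4, had log2 fold changes of 2.16 and 1.96. Cd180 and the lipopolysaccharide co-receptor Cd14 had 1.82 and 1.72. The remaining members did not pass, with Cd36 at 0.61 (adjusted p = 0.13 in limma) and Lbp at 0.17 (adjusted p = 0.65).

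Of the chaperones and trafficking proteins, which fold the receptors and carry them to endosomes, 5 of 5 rose. Unc93b1, the escort of the endosomal receptors, went from 5066 ± 647 to 21928 ± 3040 normalized counts (SD over n = 3 libraries per genotype), a log2 fold change of 2.11 (SE 0.13, adjusted p = 2.4e-07 in limma). The chaperone Hsp90b1 had 0.88, but 0.32 after quantile normalization, where it was not called. Slc15a4, a transporter of the endolysosome, had 1.41. Among the TIR adaptors 4 rose and 1 fell. Ticam2, the adaptor that links TLR4 to TRIF, had a log2 fold change of 1.88, and Myd88, used by nearly all of the receptors, 1.25. Ticam1, which encodes TRIF, the adaptor of TLR3 and TLR4, had 0.69, but 0.45 and under 1.5-fold with library totals made equal. Sarm1, a TIR protein best known from axon degeneration, fell by 1.67 on the log2 scale (SE 0.25, adjusted p = 0.00018 in limma). Its values were 302, 270 and 331 normalized counts in the controls and 73.5, 133 and 83.6 in KO. Neuron markers fell in 10 of 11 in the same libraries and astrocyte markers in 12 of 12. Among all genes tested 28.8% fell. The part of these cells in the lower Sarm1 was not tested.

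Downstream, 6 of 14 kinases and ubiquitin ligases rose and none fell. Tab2 and Irak4 had log2 fold changes of 1.17 and 1.53. Map3k7, at 0.25, and Irak2, at 0.24, were under 1.5-fold, and both turned to lower values under at least 1 other scaling of the libraries. All 9 transcription factors rose, though Irf7, a factor of the interferon response, had overlapping groups, with Irf8, a factor of myeloid cells, at 2.10, Irf5 at 1.98 and the NF-kappaB subunit Rel at 1.90. Of 8 negative regulators 6 rose. Irak3, a kinase-like inhibitor of the pathway, had 2.27, and Tnfaip3, which encodes the ubiquitin-editing enzyme A20, had 2.16, while Tollip was lower in every KO library and under 1.5-fold, at −0.40.

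Of 15 cytokine and enzyme targets 7 rose, 1 fell and 7 did not pass. Every KO library lay above every control library in 40% of them, against 32.4% of all genes tested. Il1b had 6265, 6078 and 6849 normalized counts in the controls and 68504, 47915 and 51385 in KO, a log2 fold change of 3.11 (SE 0.13, adjusted p = 3.3e-08 in limma). The chemokine Ccl3 had 2.18 and Ptgs2, which encodes cyclooxygenase 2, 2.29. Tnf, by contrast, had 4292, 5437 and 6410 normalized counts in the controls and 6691, 3371 and 6933 in KO. The groups of Tnf overlapped, and its log2 fold change was 0.02 (SE 0.25, adjusted p = 0.95 in limma). Cxcl1 was the target that fell, by 1.42 on the log2 scale (SE 0.53, adjusted p = 0.037 in limma), at no more than 80 reads in any library. Of the 2 fallen pathway genes, Sarm1 was still called when any of the libraries was left out, and the count was 1, without Cxcl1, when any library other than KO replicate 3 was left out.

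**Figure D4:**
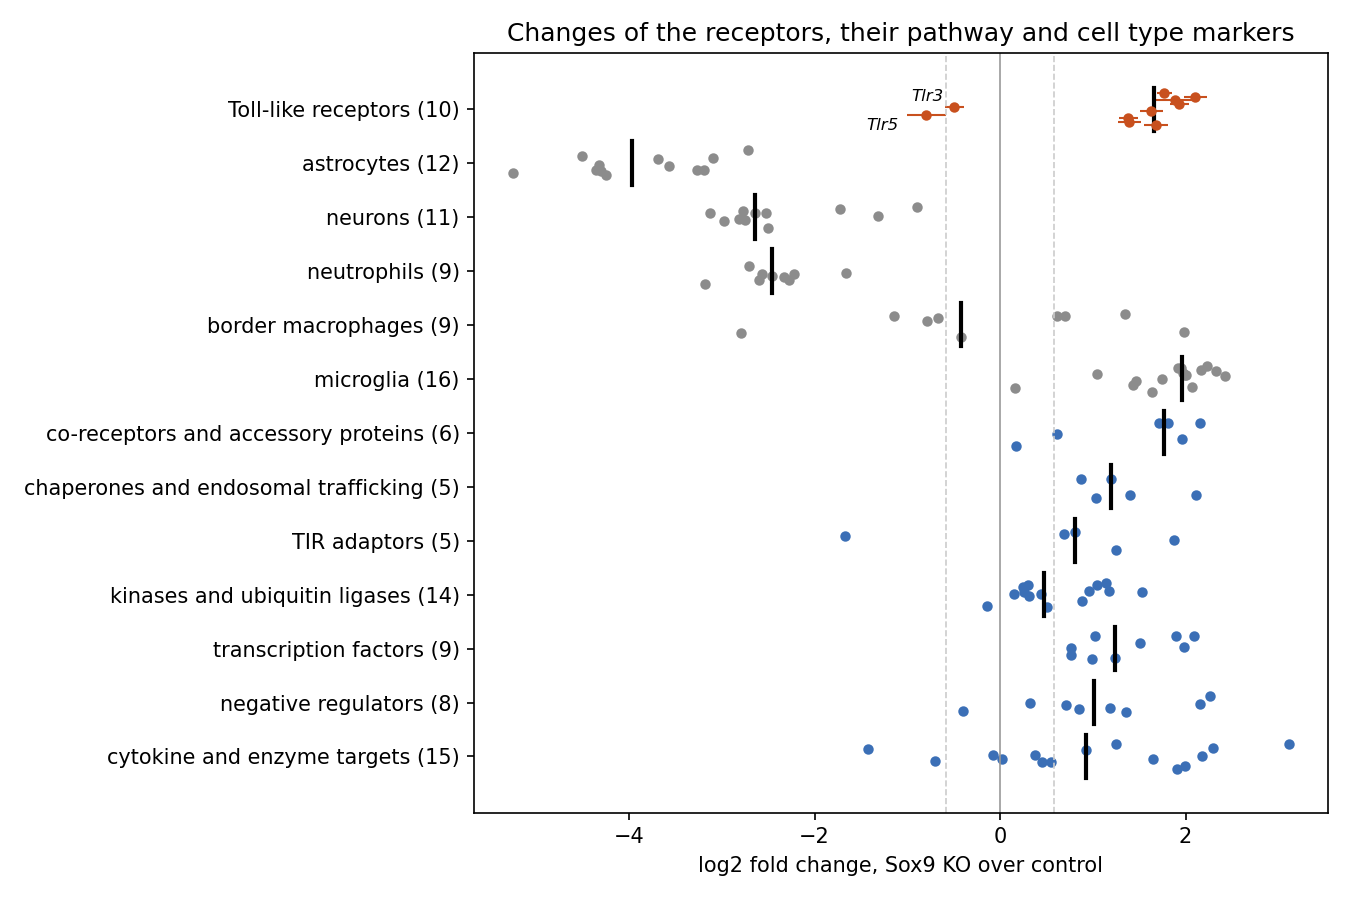
Log2 fold change of Sox9 KO over control (horizontal axis) for the 10 Toll-like receptor genes (orange, bars are standard errors from limma), the pathway genes by role (blue) and 5 of the marker lists (grey), 1 point per gene, with a black line at each list's median and dashed lines at 1.5-fold. The receptors other than Tlr3 and Tlr5 lie between 1.38 and 2.11. The median is 1.96 over the 16 microglia markers and −3.97 over the astrocyte markers. Which cells the changes of the receptors came from was not tested.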

How the data were processed

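Total RNA of sorted olfactory bulb cells was sequenced from 3 control and 3 Sox9 KO mice. The authors mapped reads to mm10 with STAR 2.5.0a, scaled alignments by depth, took gene counts with GenomicAlignments and applied the size factors of DESeq2 1.20.0. The deposited signal, named RPM by the authors, is 1 value per gene and library, and 100% of the values in each library were whole multiples of 1 step within 0.01 read. The step is the inverse of the library's size factor, so values are read counts divided by that factor, and whole reads were recovered. The gene annotation was not stated.

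Genes with a mean of at least 1 (18413 of 24421) were tested in R 4.3.3 by limma 3.58.1, whose variance prior followed the mean, on log2(value + 1), with two-sided p-values and Benjamini-Hochberg adjustment over all genes tested. Fold changes on this scale understate those of low genes. Calls of risen or fallen genes needed 1.5-fold and an adjusted p under 0.05. The recovered reads were tested with edgeR 4.0.16 (quasi-likelihood, TMM) and DESeq2 1.42.0 as alternatives. The limma, edgeR and DESeq2 fits were tested on simulated reads. Exon lengths came from GENCODE M21, and coordinates and start windows from RefSeq, which held 95.0% of the symbols.

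The receptors, the role lists and the marker lists were chosen with earlier results of these data known. Named are the receptors, Sox9, Tlr11, Tlr12, in each role list at most the 3 genes of highest mean and the 2 called genes of largest change, and in each marker list at most the 3 of highest mean. Cd36, Lbp, Irf7, Tollip, Gm45542, Tnf, Cxcl1, Mpo, Cd209a, Cd22 and Ms4a1 were named after their values were seen. Of the listed markers, Ly6g, Ighm and Trac were not found by symbol, and Pax5 and Ncr1 were under the minimum mean.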

Additional observations from a re-analysis of the deposited data

How the results depend on the processing

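Of 849 values recomputed under 19 alternatives, 784 kept their direction and their side of the threshold, and Sox9 stayed between −8.33 and −6.34 on the log2 scale. The number of risen receptors was 8 under every alternative except the one relative to the microglia markers, where it was 0. The number of fallen receptors was 1, and 2 with scaling to the same total, with or without Rn45s (a ribosomal RNA gene with between 14.2% and 22.4% of the values), and relative to the microglia markers, and 0 at 2-fold. Tlr3 was −0.74, −0.82 and −0.96 under total scaling, total scaling without Rn45s and quantile normalization, and under the last of these Tlr5 (−0.55) was no longer called. Leaving out each library in turn gave −0.58 to −0.42 for Tlr3, −0.94 to −0.59 for Tlr5, 41 to 44 risen and 1 to 2 fallen pathway genes and 15 to 16 risen microglia markers. Pathway genes fallen were 1 without the filter and 1 in edgeR. Relative to the microglia markers the pathway had 3 risen and 34 fallen genes and the markers themselves 1 and 2, which follows from subtracting their rise. Reversed on that scale were Tlr1 (−0.10), Tlr2 (−0.39), Tlr4 (−0.40), Tlr6 (−0.15), Tlr13 (−0.015), Cd14 (−0.068), Hsp90b1 (−0.91), Ap3b1 (−0.59), Slc15a4 (−0.38), Ticam1 (−1.09), Myd88 (−0.53), Tab2 (−0.61), Irak2 (−1.54), Irak4 (−0.26), Map3k7 (−1.53), Nfkb1 (−0.28), Cyld (−0.43) and Nfkbia (−1.07). Irak2 was also reversed under quantile normalization (−0.014) and total scaling without Rn45s (−0.082), as was Map3k7 under the latter (−0.074), and the cause was not tested. Hsp90b1 was not called after quantile normalization (0.32) or total scaling without Rn45s (0.55). Ticam1 was not called with total scaling (0.45) or total scaling without Rn45s (0.36). Nfkbia was not called after quantile normalization (0.52), total scaling (0.47) or total scaling without Rn45s (0.39).

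Over all genes 4090 rose and 5299 fell (56.4% of calls lower), against 5380 and 4100 (43.2%) after quantile normalization, 2936 and 6191 (67.8%) with total scaling 2630 and 6597 (71.5%) without Rn45s and 196 and 15037 (98.7%) relative to the microglia markers. These scalings moved the median of all genes by 0.27, −0.23, −0.31 and −1.78. With a replicate block the receptors had 8 risen and 1 fallen and the pathway 44 risen. Same-numbered libraries deviated with correlations of −0.05, −0.01 and −0.01, so no shared deviation was seen. With 3 libraries a group this cannot exclude a shared preparation. With 3 libraries a group, permuting the labels exactly for 1 gene could not give a p under 0.1.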

Other observations

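Sensors outside the Toll-like receptor family were listed after the values of the receptors had been seen. Of 12 cytosolic and lectin sensors, 9 rose in limma at the thresholds used above and none fell. Over all genes tested 22.2% rose and 28.8% fell. The median log2 fold change of the 12 sensors was 1.57. The beta-glucan receptor Clec7a rose most, from 1809 ± 63.1 to 13586 ± 2048 normalized counts (SD over n = 3 libraries per genotype), a log2 fold change of 2.90 (SE 0.11, adjusted p = 1.9e-08 in limma). The DNA sensor Aim2 had 2.02, Nlrp3, the sensor of an inflammasome, 1.90, and Mb21d1, which encodes the DNA sensor cGAS, 1.68. The RNA sensors of the cytosol moved less evenly, with Ifih1 (MDA5) at 1.17 and Ddx58 (RIG-I) at 0.48, which did not pass (adjusted p = 0.10 in limma).

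The interleukin-1 receptor family shares the TIR domain with the Toll-like receptors, and 9 of its genes were listed. Of these 9 genes 2 rose, 2 fell and 5 did not pass, shares close to those over all genes tested (22.2% rose and 28.8% fell). The median of the 9 log2 fold changes was −0.46. Il1rl2, the interleukin-36 receptor, rose from 123 ± 1.43 to 552 ± 94.2 normalized counts (SD over n = 3 libraries per genotype), a log2 fold change of 2.15 (SE 0.17, adjusted p = 2.3e-06 in limma), and Il1r1 had 1.10. Il1rapl1, known from neuronal synapses, went from 256 ± 96.8 to 31.5 ± 4.11 normalized counts, a fall by 2.92 on the log2 scale (SE 0.31, adjusted p = 1.4e-05 in limma), and Il1rapl2 fell by 1.81. The shared co-receptor subunit Il1rap was lower in every KO library and under 1.5-fold, at −0.46.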
